A study of Mus musculus with 7 samples.

Results

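The genes described here are 10 markers of microglia and of the macrophages at the borders of the brain, measured by RNA sequencing in sorted cells of the embryonic mouse neocortex. They are the complement chains *C1qa*, *C1qb* and *C1qc*, the receptors *Csf1r*, *Cx3cr1*, *P2ry12*, *Trem2* and *Mrc1*, the adaptor *Tyrobp* and the calcium-binding protein gene *Aif1*. Members were the rows of the count table whose Ensembl gene identifier maps to 1 of these symbols. All 10 were found among the 38124 genes of the table, and all 10 passed the filter on low counts that left 16522 genes in the test.

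All embryos were heterozygous for *Tis21*-CreERT2, in which a tamoxifen-activated Cre recombinase is driven from the *Tis21* locus, a gene active in neurogenic progenitors. Mothers received tamoxifen, the neocortex was electroporated in utero at E13.5, and tissue was taken 48 hr later at E15.5. The control group (3 libraries, Control_1, Control_2 and Control_4) carried a construct that expresses red fluorescent protein (RFP), and the Sox9 group (4 libraries, Sox9_1 to Sox9_4) a conditional Sox9 expression construct that also marks recombined cells by RFP. Each library came from cells with a high RFP signal, sorted by FACS from pooled cortices of several embryos and mothers, so no library is 1 animal. Microglia arise outside the neural lineage, and the gate was set on RFP, size and shape and not on any microglial protein. Control libraries held 10465562 to 12907778 counts and libraries labelled Sox9 held 4429704 to 10520214. *Sox9* mRNA itself was not higher under that label. Its level was 40.0 ± 8.33 CPM (library-scaled counts; SD, n = 4), against 63.9 ± 27.5 in the control (SD, n = 3), and edgeR's quasi-likelihood test gave an adjusted p of 0.0493. By qPCR on cells sorted by RFP, the study found its highest *Sox9* mRNA level in high-RFP cells given the Sox9 construct. The counts do not separate the endogenous gene from the construct, and the group names below are those of the labels.

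Microglia are the resident macrophages of the brain. They derive from the yolk sac, colonize the cortex during embryonic development and depend on signalling through the receptor CSF1R. They are a main source of C1q, the protein that starts the classical complement pathway and tags synapses and debris, and they sense neurons and injured cells through CX3CR1, P2RY12 and the pair of TREM2 with its adaptor DAP12, encoded by *Tyrobp*. The mannose receptor MRC1 is best known as a marker of perivascular and meningeal macrophages. These genes define the cell type. In a bulk library, fewer cells of a type and less RNA per cell cannot be told apart.

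The 3 C1q chains are neighbours on mouse chromosome 4 (GRCm38, reverse strand), with *C1qb* at 136880129 to 136886187, *C1qc* at 136889804 to 136893065 and *C1qa* at 136895917 to 136898803. *P2ry12* lies on chromosome 3 at 59216272 to 59262871, where 9 exonic bases are shared with *Med12l* on the opposite strand, and *Csf1r* shares 873 exonic bases with *Hmgxb3* on the opposite strand. Whether the counting used strand is not given in the sources used here, so reads in those shared bases cannot be assigned to 1 of the partners. *Cx3cr1* spans several other genes but shares no exonic base with those in the count table.

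Promoter sequences (RefSeq, GRCm38.p6) were at hand for 7 of the 10 genes, and not for *C1qa*, *Csf1r* and *Tyrobp*. The 250 bases before the start are printed for *C1qb*, the member with the highest level per kilobase, at chr4:136886201-136886450 on the reverse strand, for *Mrc1*, a member whose groups did not overlap, at chr2:14229164-14229413 on the forward strand, and for *P2ry12*, where 1 library held 63.5% of the counts of its group, at chr3:59262986-59263235 on the reverse strand. Each reads 5′ to 3′ along the gene. Capitals mark matches on either strand to GAGGAA, the core bound by the myeloid factor PU.1, and to ACAATG or ACAAAG, cores bound by SOX factors.
C1qb: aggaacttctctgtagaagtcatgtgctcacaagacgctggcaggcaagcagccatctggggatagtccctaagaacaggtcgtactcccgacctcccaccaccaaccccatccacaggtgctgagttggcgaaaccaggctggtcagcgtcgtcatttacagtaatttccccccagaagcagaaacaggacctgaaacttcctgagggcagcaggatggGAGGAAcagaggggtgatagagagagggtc
Mrc1: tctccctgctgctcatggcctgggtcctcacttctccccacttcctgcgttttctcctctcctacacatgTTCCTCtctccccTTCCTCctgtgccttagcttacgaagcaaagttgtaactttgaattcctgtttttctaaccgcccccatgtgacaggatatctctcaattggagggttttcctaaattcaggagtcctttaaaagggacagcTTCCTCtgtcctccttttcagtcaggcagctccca
P2ry12: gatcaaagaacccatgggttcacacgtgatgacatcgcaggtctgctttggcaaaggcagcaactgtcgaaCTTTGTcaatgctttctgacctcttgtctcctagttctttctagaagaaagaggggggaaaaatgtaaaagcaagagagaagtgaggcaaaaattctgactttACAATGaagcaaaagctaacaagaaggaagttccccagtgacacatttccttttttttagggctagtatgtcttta
GAGGAA was found in the 300-base windows, 250 bases before to 50 after the start, of 5 of the 7 genes, against 28.3% of 32851 promoters. The match in *C1qb* begins 30 bases before the start, and *Mrc1* has 3, the first at 180 bases. *P2ry12* has none, but has the only ACAATG, 76 bases before the start, and the only ACAAAG, 179 bases before it. All promoters hold these letters in 12.6% and 18.7% of cases. A match of 6 letters is a description of the sequence and was not tied to binding here.

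*C1qa*, a chain of C1q, was the only one of the 10 genes called different between the groups at an adjusted p under 0.01. Its raw counts were 4, 6 and 5 in Control_1, Control_2 and Control_4, and 48, 31, 31 and 3 in Sox9_1 to Sox9_4. In CPM these were 0.382, 0.521 and 0.509 against 6.59, 2.93, 3.47 and 0.629. Sox9_1, Sox9_2 and Sox9_3 stood far above the controls, while Sox9_4 exceeded them only after scaling for its shallow depth, since its 3 reads are fewer than those of any control. The 95% exact Poisson interval of Sox9_4, 0.130 to 1.84 CPM, spans the control values. Intervals and floors given here cover counting error only, because cDNA was amplified without molecular identifiers. The log2 fold change of *C1qa* was 2.84 (SE 0.64), a 7.18-fold higher level with an adjusted p of 0.00505 by edgeR's quasi-likelihood test with Benjamini-Hochberg adjustment over all genes. *C1qa* was the 1 member that passed the filter on low counts only through the libraries labelled Sox9, so it had to differ to be tested. With no filter it was at 2.75, with an adjusted p of 2.113e-05. It was 0.89, with an adjusted p of 0.332, after cyclic loess normalization, a scaling that removes trends with expression level. Leaving out 1 library at a time kept the direction, with 2.34 to 3.19 on the log2 scale, but the call was lost in 5 of 7 fits. These were the fits without Control_1 (adjusted p 0.0169), Control_2 (0.0151), Control_4 (0.0136), Sox9_1 (0.0167) or Sox9_3 (0.0139).

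This 1 call among 10 members stands beside a background of 11.3% of all genes tested that were called higher in the libraries labelled Sox9 and 3.43% that were called lower. Among the 6474 genes in the range of average expression that the members span, 21.5% were called higher and 1.03% lower. The median log2 fold change was 0.57 over the members, with 7 of 10 above 0, against 0.78 over the genes of the same range, 73.8% of which were above 0. The median of all genes tested was -0.0031. The share called among the members is thus below that of genes of like abundance, and it is no result about microglia genes as a list. Under cyclic loess normalization the signs of *C1qb*, *C1qc*, *Mrc1* and *Tyrobp* turned, to log2 fold changes of -0.06, -0.15, -0.09 and -0.75.

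*C1qb*, the most abundant C1q chain, had raw counts of 17, 88 and 38 in the controls and 88, 48, 40 and 10 in Sox9_1 to Sox9_4. Its CPM was 1.63, 7.65 and 3.87 against 12.1, 4.54, 4.47 and 2.10. Sox9_1 was above every control, but the other 3 libraries labelled Sox9 lay within the range of the controls. The log2 fold change was 0.41 (SE 0.53, edgeR adjusted p 0.587), and without Sox9_1 it was -0.21.

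*C1qc* had raw counts of 5, 13 and 2 in the controls against 29, 32, 23 and 0 under the Sox9 label. The CPM was 0.478, 1.13 and 0.203 against 3.98, 3.02, 2.57 and 0. Sox9_4 again departed from the other libraries of its group, with no read where a count of 0 allows up to 0.629 CPM (3 counts). The difference did not pass the threshold, at a log2 fold change of 1.99 (SE 0.76, edgeR adjusted p 0.0577). Without Sox9_4 it was 2.38 and passed, with an adjusted p of 0.00900. Under cyclic loess normalization its sign turned. *C1qa* and *C1qc* were thus above every control in Sox9_1, Sox9_2 and Sox9_3, while *C1qb*, their neighbour on the chromosome, was so only in Sox9_1.

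**Figure D1:**
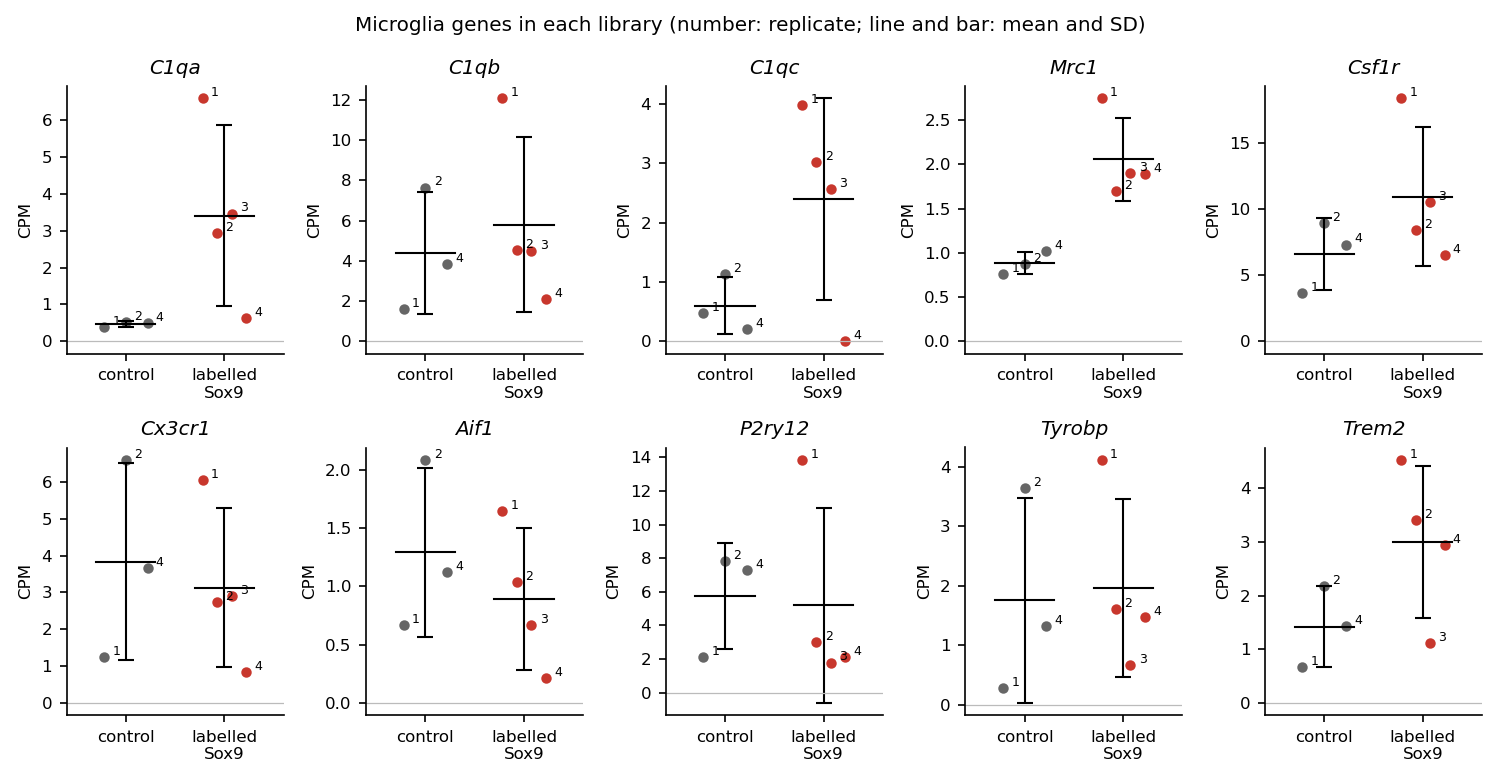
CPM (counts scaled to library size, linear axes) of the 10 microglia genes in each library, with the 3 controls in grey and the 4 libraries labelled Sox9 in red. The number beside a point is the replicate, and the line and bar are the group mean and SD. *C1qa* and *Mrc1* are the genes whose groups do not overlap, and Sox9_1 is the highest point of its group in every panel.

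Among the receptors, *Csf1r*, the receptor for CSF1 and IL-34 on which microglial survival depends, had the most counts. The raw counts were 38, 103 and 72 in the controls against 134, 89, 94 and 31 under the Sox9 label. In CPM this was 3.63, 8.95 and 7.32 against 18.4, 8.41, 10.5 and 6.50. The groups overlapped, with Sox9_2 and Sox9_4 below the highest control and Control_1 the lowest of all 7. Its log2 fold change was 0.73 (SE 0.36, edgeR adjusted p 0.138), and it was 0.36 without Sox9_1.

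*Cx3cr1* encodes the receptor for the neuronal chemokine fractalkine. Its raw counts were 13, 76 and 36 in the controls against 44, 29, 26 and 4 under the Sox9 label. The CPM was 1.24, 6.60 and 3.66 against 6.04, 2.74, 2.91 and 0.839, so the highest library was a control. The log2 fold change was -0.27 (SE 0.55, edgeR adjusted p 0.742), or -0.96 under cyclic loess normalization, with an adjusted p of 0.314. Its sign depended on single libraries, with 0.39 without Control_2 and -0.76 without Sox9_1.

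*P2ry12* encodes the purinergic receptor that directs microglial processes toward ATP and ADP. Its raw counts were 22, 90 and 72 in the controls against 101, 32, 16 and 10 under the Sox9 label. In CPM this was 2.10, 7.82 and 7.32 against 13.9, 3.02, 1.79 and 2.10. Sox9_1 alone was higher than the controls and held 63.5% of the group's counts, while the other 3 libraries of the group lay between 1.79 and 3.02, near the lowest control. Between the groups the log2 fold change was -0.15 (SE 0.61, edgeR adjusted p 0.877) with all libraries and -1.30 without Sox9_1, where the adjusted p was 0.0570. Under cyclic loess normalization of all libraries it was -0.89, with an adjusted p of 0.371.

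*Trem2*, a receptor for lipids and lipoproteins, had raw counts of 7, 25 and 14 in the controls against 33, 36, 10 and 14 under the Sox9 label. The CPM was 0.669, 2.17 and 1.42 against 4.53, 3.40, 1.12 and 2.94. Sox9_1, Sox9_2 and Sox9_4 were above every control and Sox9_3 was below 2 of them. The log2 fold change was 1.05 (SE 0.52, edgeR adjusted p 0.132), or 0.03 under cyclic loess normalization. *Tyrobp*, the adaptor through which TREM2 signals, had 3, 42 and 13 raw counts in the controls against 30, 17, 6 and 7 under the Sox9 label. Its CPM was 0.287, 3.65 and 1.32 against 4.12, 1.61, 0.671 and 1.47. The controls alone spanned 12.7-fold, and Control_2 held 72.4% of their counts. This gave a log2 fold change of 0.14 (SE 0.69, edgeR adjusted p 0.895), 1.28 without Control_2 and -0.51 without Sox9_1.

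*Mrc1* was the most even member. The raw counts were 8, 10 and 10 in the controls against 20, 18, 17 and 9 under the Sox9 label. In CPM this was 0.765, 0.869 and 1.02 against 2.75, 1.70, 1.90 and 1.89. The groups did not overlap in CPM, although in raw counts the shallow Sox9_4 lay between the controls. The log2 fold change was 1.21 (SE 0.44) with an edgeR adjusted p of 0.0497, which does not pass 0.01 but does pass 0.05, where 21.9% of all genes tested were called higher and 10.8% lower. The 7 fits with 1 library left out gave 1.04 to 1.35, but cyclic loess normalization gave -0.09. For *C1qa* and *Mrc1*, an exact two-sided permutation test on the CPM gave p = 0.0571 each, the smallest that the 35 splits of 7 libraries can give, as for any gene whose groups do not overlap. This test cannot reach 0.05 here, and for the other 8 members it gave 0.171 to 0.971. The deposited FPKM gave the same 2 genes without overlap and the same exact p. For comparison, 22.9% of all genes tested were without overlap and higher in the libraries labelled Sox9, and 40.0% of those in the members' range of expression, against 16.4% and 3.82% without overlap and lower.

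*Aif1*, which encodes the calcium-binding protein known as Iba1, had the lowest total. The raw counts were 7, 24 and 11 in the controls against 12, 11, 6 and 1 under the Sox9 label. The CPM was 0.669, 2.09 and 1.12 against 1.65, 1.04, 0.671 and 0.210. The groups overlapped, and the log2 fold change was -0.48 (SE 0.58, edgeR adjusted p 0.560), or 0.07 without Control_2. Under cyclic loess normalization it was -1.92, with an adjusted p of 0.0350.

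Single libraries carried much of the difference for most members. By CPM, Control_2 was the highest control for 9 of the 10 genes and Control_1 the lowest control for 9, and the lowest of all 7 libraries for 6. Sox9_1 was the highest library of its group for all 10 genes and the highest of all 7 for 8. Sox9_4 was the lowest of its group for 6. The summed CPM of the members was 11.9 in Control_1, 41.5 in Control_2 and 27.8 in Control_4, and 74.0, 32.4, 30.1 and 18.7 in Sox9_1 to Sox9_4. The sums came from 124, 477 and 273 counts in the controls against 539, 343, 269 and 89 under the Sox9 label. The group means were 27.0 ± 14.8 (SD, n = 3) and 38.8 ± 24.3 CPM (SD, n = 4), a difference smaller than either SD. The log2 ratio of these means was 0.52, and it was 0.0014 without Sox9_1 and 0.97 without Control_2. The sum thus differed more within a group than between the groups.

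**Figure D2:**
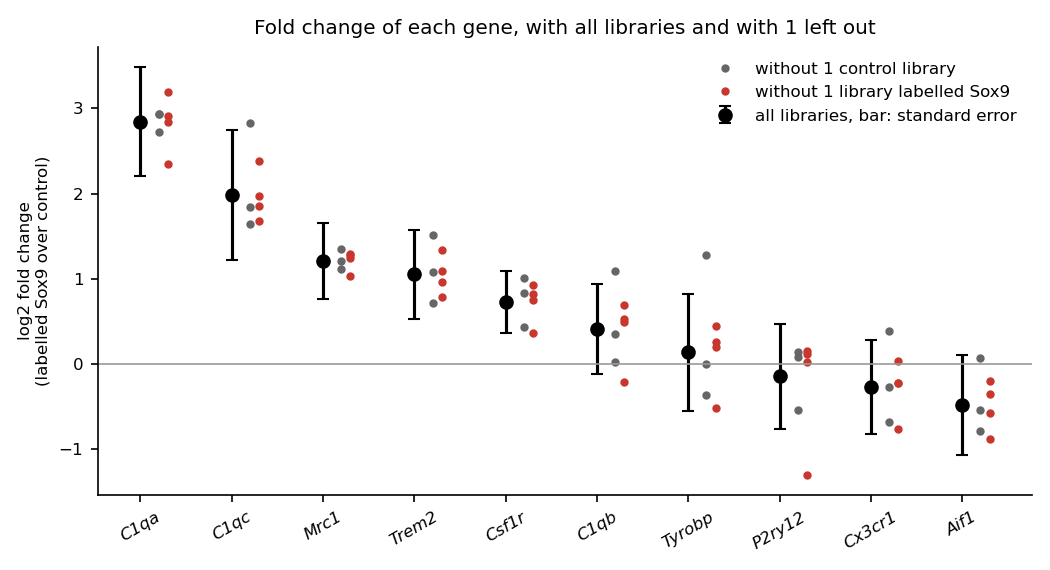
Log2 fold change (libraries labelled Sox9 over control, edgeR) of each microglia gene with all libraries (black, bar: standard error) and with 1 library left out (small points, grey for a control and red for a library labelled Sox9). *C1qa*, *C1qc*, *Mrc1*, *Trem2* and *Csf1r* stay above 0 in all 7 such fits, although *C1qc*, *Mrc1* and *Trem2* fall to -0.15, -0.09 and 0.03 under cyclic loess normalization, and the other 5 genes cross 0.

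**Figure D3:**
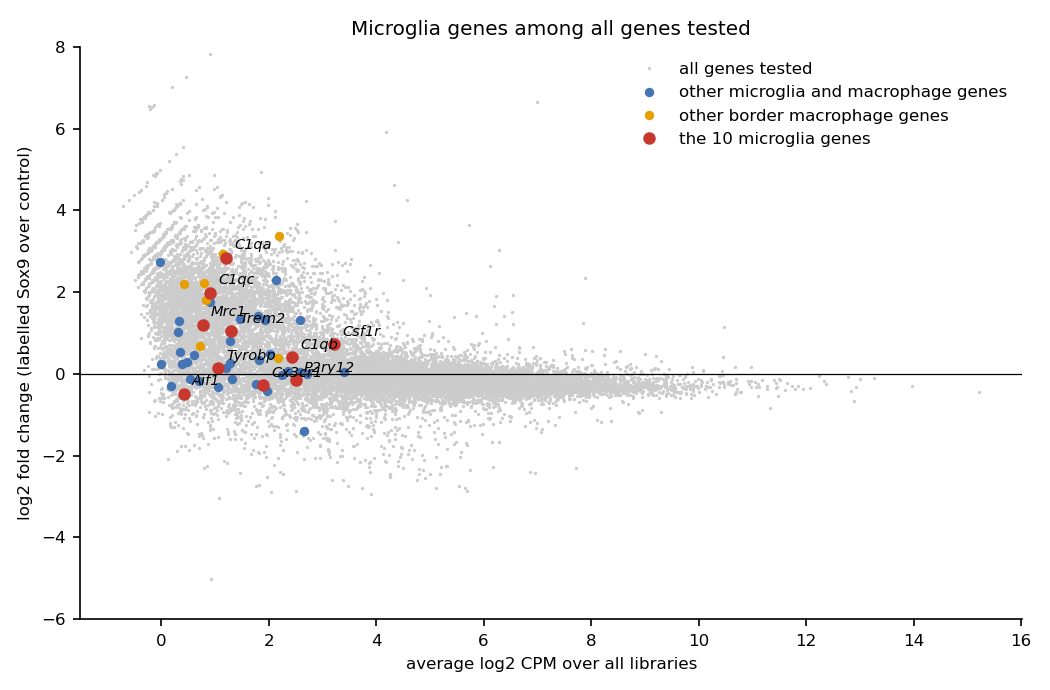
Log2 fold change against average log2 CPM for all 16522 genes tested (grey), with the 10 microglia genes in red and named, other microglia and macrophage genes in blue and other border macrophage genes in orange. The microglia genes span average log2 CPM 0.42 to 3.22, a range in which 73.8% of all genes lie above 0.

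Levels between genes were compared per kilobase of exon. Whether intronic reads were counted is not given in the sources used here, and if they were, genes with long introns such as *Cx3cr1* and *Mrc1* would be overstated on this scale. Over the 7 libraries the mean CPM per kilobase was 4.77 for *C1qb*, 2.81 for *Tyrobp*, 2.13 for *P2ry12*, 2.06 for *C1qa* and 1.58 for *Csf1r*. It was 0.843 for *C1qc*, 0.762 for *Cx3cr1*, 0.694 for *Aif1*, 0.470 for *Trem2* and 0.244 for *Mrc1*. In the libraries labelled Sox9, none of the 9 neighbouring pairs in this order differed by more than the larger SD of the pair. In the controls 4 pairs did, namely *P2ry12* and *C1qa*, *C1qa* and *Csf1r*, *Csf1r* and *C1qc*, and *Aif1* and *Trem2*. The order is that of the mean over both groups and differed within them. In the controls alone *C1qa* and *C1qc* lay below *Cx3cr1* and *Aif1*, and *C1qa* also below *Csf1r*. In the libraries labelled Sox9, *C1qa* lay above *Tyrobp* and *P2ry12*, and *Trem2* above *Aif1*. The place of *C1qa* thus differed between the groups, at 0.453 ± 0.0739 CPM per kilobase in the controls (SD, n = 3) and 3.27 ± 2.36 in the libraries labelled Sox9 (SD, n = 4).

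Shares within a library do not depend on how libraries are scaled to each other. They were chosen after the values were seen and carry no test. Of the counts on the 3 C1q chains, *C1qa* made up 15.4%, 5.61% and 11.1% in Control_1, Control_2 and Control_4, and 29.1%, 27.9%, 33.0% and 23.1% in Sox9_1 to Sox9_4. The groups did not overlap, but the 95% Wilson interval of Sox9_4, from 13 C1q counts, was 8.18% to 50.3% and that of Control_1 was 6.15% to 33.5%. *P2ry12* and *Cx3cr1*, receptors of surveying microglia, together made up 28.2%, 34.8% and 39.6% of the counts on the 10 genes in the controls. In the libraries labelled Sox9 they made up 26.9%, 17.8%, 15.6% and 15.7%. Here too the groups did not overlap, with Control_1 and Sox9_1 close to each other. The C1q chains together made up 21.0%, 22.4% and 16.5% in the controls and 30.6%, 32.4%, 34.9% and 14.6% in the libraries labelled Sox9, where Sox9_4 was the lowest of all 7. The mix of microglia genes therefore differed between libraries as well as their sum.

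**Figure D4:**
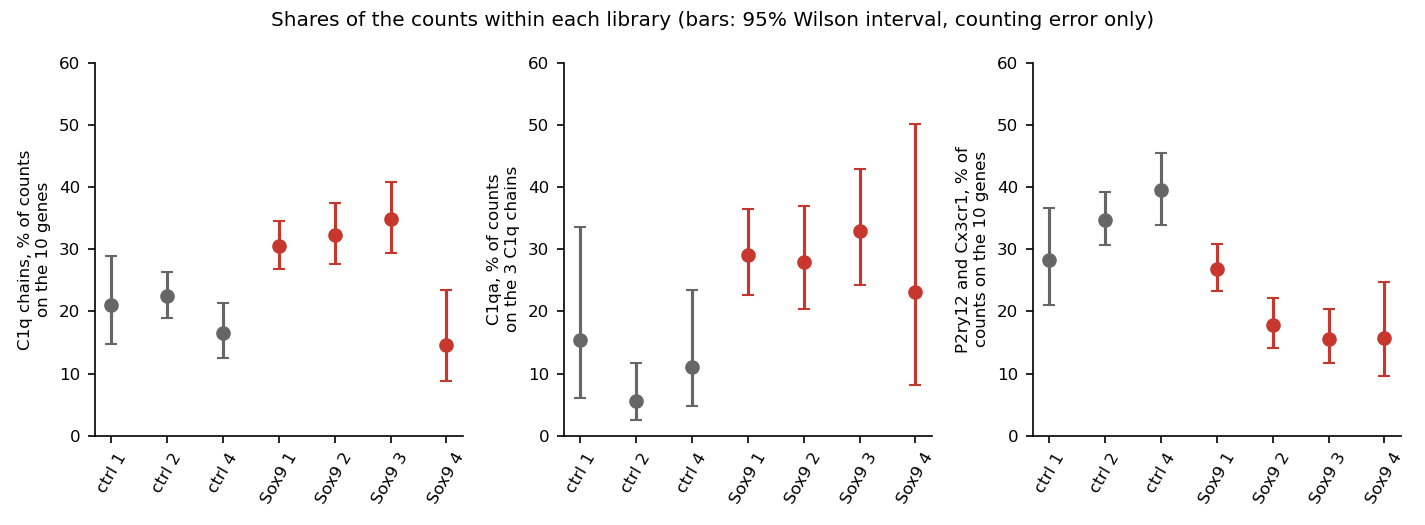
Shares of counts within each library, in percent, for the C1q chains among the 10 microglia genes (left), *C1qa* among the C1q chains (middle) and *P2ry12* with *Cx3cr1* among the 10 genes (right), with bars giving the 95% Wilson interval. The middle and right panels show groups that do not overlap, while in the left panel Sox9_4 lies below the controls at 14.6%.

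The patterns over the 7 libraries were also compared by Pearson r of log2 CPM among 16301 genes with at least 50 counts, as a description without a test, since 7 libraries share depth and scaling. The genes most like *Csf1r* were *Hdx* (r = 0.979), *Pld4* (0.976) and *Tdrd9* (0.971), and those most like *P2ry12* were *Ccl3* (0.992), *Ighm* (0.991) and *Gm22077* (0.982). Those most like *C1qb* were *Atg2b* (0.970), *Nynrin* (0.969) and *Otub2* (0.958). The nearest member to *C1qb* was *Cx3cr1*, at r = 0.922 and rank 11. *C1qb* was the nearest member to *Csf1r*, at 0.912 and rank 44, and *Cx3cr1* the nearest to *P2ry12*, at 0.820 and rank 105. With 16301 genes compared over only 7 libraries, some genes can come closer than any member by chance. No conclusion about a shared pattern of the members is drawn from these ranks.

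Other microglia and macrophage genes behaved unevenly too. Of 36 listed, 32 were tested, 2 were called higher and 1 lower, where 21.5% and 1.03% of the genes in the members' range were, with a median log2 fold change of 0.26, which was -0.45 under cyclic loess normalization. *Irf8*, a transcription factor of the myeloid lineage, had 12, 13 and 17 raw counts in the controls against 54, 56, 72 and 27 under the Sox9 label. All 4 of the latter exceeded every control, at a log2 fold change of 2.30 and an edgeR adjusted p of 0.00065, and the call was kept in all 7 fits with 1 library left out. Under cyclic loess *Irf8* was lower, at 1.56, and was still called (adjusted p 0.0053). *Spi1*, which encodes PU.1, had 3, 3 and 0 counts against 12, 13, 9 and 7, with a log2 fold change of 2.73 and an adjusted p of 0.00842 that was lost in each of the 7 fits, where the log2 fold change was 2.25 to 3.13. Under cyclic loess it was 0.41 (adjusted p 0.614), and *Spi1* passed the filter only through the libraries labelled Sox9. *Sall1*, a factor of microglial identity that neural progenitors also express, fell by 1.39 on the log2 scale (edgeR adjusted p 0.00912), and the call was kept in 1 of 7 fits. Under cyclic loess *Sall1* was at -1.54 and not called (adjusted p 0.0116). Its counts were 50, 100 and 140 in the controls against 30, 36, 27 and 17 under the Sox9 label.

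Border macrophage genes other than *Mrc1* gave 3 higher calls of 7 tested and 12 listed. Of these 7, 4 passed the filter on low counts only through the libraries labelled Sox9, the 3 called genes among them, so the median of 2.21 is biased upward. With no filter, 4 of all 12 were called higher, beside 8.19% of all genes in that fit, and the median was 1.67. Under cyclic loess normalization the median was 0.55 and 1 of the 7, *Stab1*, was called. *Stab1*, a scavenger receptor, had 6, 10 and 7 counts in the controls against 50, 56, 71 and 50 under the Sox9 label (log2 fold change 3.37, edgeR adjusted p 0.000125). *Pf4*, a chemokine, had 3, 7 and 4 against 25, 25, 31 and 23 (2.95, adjusted p 0.00102). Both rose in every library labelled Sox9, Sox9_4 included, and were called in all 7 fits with 1 library left out, but under cyclic loess *Pf4* was at 1.41 with an adjusted p of 0.0298. *Ccl24* rose by 2.23 on the log2 scale (adjusted p 0.00433), and its call was kept in 2 of 7 fits and lost under cyclic loess (0.61, adjusted p 0.349). The defining markers *Lyve1*, *Cd163*, *Ms4a7*, *Cbr2* and *Ms4a6c* did not pass the filter on low counts. By CPM, none of *Stab1*, *Pf4* and *Irf8* was highest in Sox9_1, the highest library for 8 of the 10 members.

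**Figure D5:**
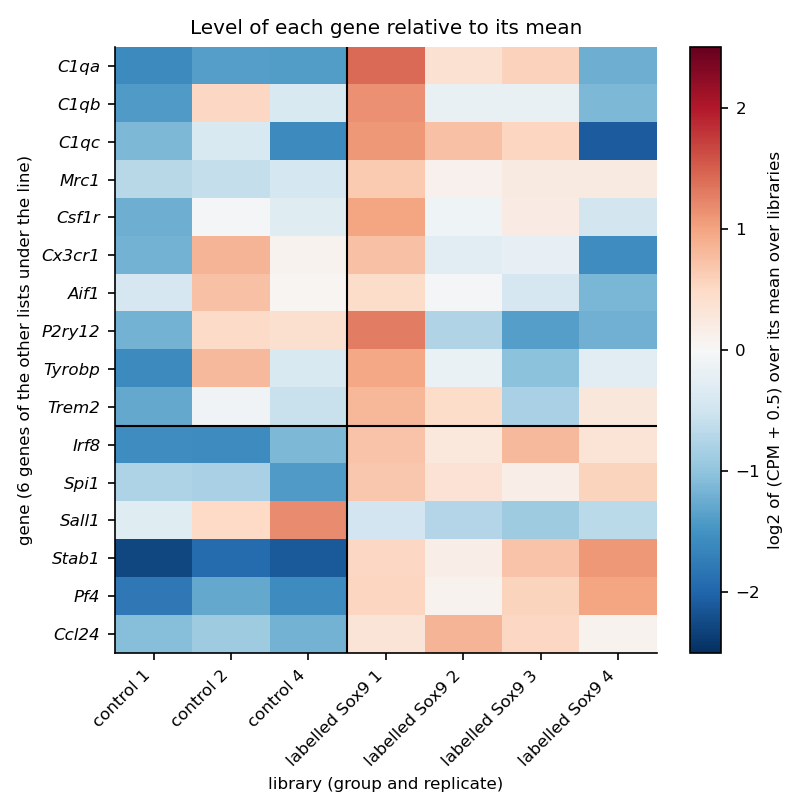
Level of the 10 microglia genes (above the line) and of 6 called genes of the other microglia and border macrophage lists (below it) in each library, as log2 of CPM + 0.5 relative to the gene's mean over the 7 libraries (red high, blue low). *Stab1*, *Pf4* and *Irf8* are higher in all 4 libraries labelled Sox9, while among the 10 members Control_2 and Sox9_1 are high and Control_1 and Sox9_4 low for most genes.

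C1q starts the classical complement pathway, and of 12 listed complement genes, which include *Masp1* and *Masp2* of the lectin pathway, 8 were tested. Calls in this list and the next stand beside 11.3% of all genes tested called higher and 3.43% lower. Among genes in the members' range of expression these shares were 21.5% and 1.03%, and the median log2 fold change was 0.78. *Masp2*, a serine protease, was called higher (log2 fold change 2.5, edgeR adjusted p 0.00888), after passing the filter only through the libraries labelled Sox9. *Serping1*, the inhibitor of C1, and *Masp1* fell by 1.29 and 0.71 on the log2 scale (adjusted p 0.00867 and 0.00568). With 1 library left out, *Masp2* and *Serping1* kept their calls in 2 of 7 fits and *Masp1* in 1, and none of the list was called under cyclic loess. There *Serping1* was at -1.41 and *Masp1* at -0.50, while *Masp2* was at 0.44. The list's median was 0.29, or -0.50 under cyclic loess normalization. *C1ra*, *C1s1*, *C3* and *C4b*, the proteases and later components that act with C1q, did not pass the filter on low counts. For TREM2 and DAP12 signalling, 9 of 14 genes were tested, with a list median of 0.72, or 0.26 under cyclic loess. Only *Plcg2*, the phospholipase downstream of the receptor, was called, and it was higher (1.88, edgeR adjusted p 0.00768). It too passed the filter only through the libraries labelled Sox9. Its call was kept in 1 of 7 fits with 1 library left out and lost under cyclic loess (0.59, adjusted p 0.307). Of the ligands of CSF1R and CX3CR1, *Csf1* and *Cx3cl1* gave log2 fold changes of 0.09 and 0.67, neither called, and *Il34* did not pass the filter. Under cyclic loess the signs of *Csf1* and *Cx3cl1* turned, to -0.39 and -0.81, and neither was called.

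Other lists of genes are given beside these results. The background for their calls was 11.3% higher and 3.43% lower over all genes in the test. Within the members' range of expression it was 21.5% higher and 1.03% lower. A few calls in a list are therefore not by themselves a difference from other genes. Summed over 1374 chemoreceptor genes, which neocortical cells and microglia are not known for, the level was 113 to 155 CPM in the controls and 342 to 481 in the libraries labelled Sox9. Of these, 99 passed the filter on low counts. Among the 99, 97 had a log2 fold change above 0 and 13 were called higher, and their median was 1.70, or 0.23 under cyclic loess. How many of the 99 passed only through the libraries labelled Sox9 was not counted, so these values may be biased upward. Erythroid genes summed to 2.20, 24.9 and 13.3 CPM in the controls and 15.0, 66.2, 94.8 and 22.7 in the libraries labelled Sox9, a different order of libraries from that of the microglia genes. Endothelial genes summed to 4.87 to 13.7 CPM in the controls and 17.0 to 45.1 in the libraries labelled Sox9, with 2 of 6 tested called higher, and mural and meningeal genes to 8.70 to 11.0 and 16.0 to 30.5, with 1 of 7. Choroid plexus genes summed to 0.574 to 1.74 and 7.84 to 13.2 CPM, with 3 called higher of 6 listed. These 3 were the ones that passed the filter, which they did through the libraries labelled Sox9. Oligodendrocyte precursor genes summed to 0.814 to 1.56 and 9.73 to 27.7 CPM, with 4 called higher of 6 listed, and the 5 tested also passed the filter only through the libraries labelled Sox9. Under cyclic loess 1 of the 5 oligodendrocyte precursor genes was called, and 0 of the erythroid, endothelial, mural and meningeal and choroid plexus genes. Radial glia genes summed to 615 to 1164 CPM in the controls and 299 to 441 in the libraries labelled Sox9, with 5 of 9 called lower. Intermediate progenitor genes summed to 636 to 678 and 411 to 533, most of it *Elavl4*, which neurons also express, with 3 of 7 called lower, and neuron genes to 13920 to 17370 and 12810 to 14930, with none of 9 called. Genes of other leukocytes gave 2 higher calls of 3 tested, *Ms4a1* (log2 fold change 1.80) and *Ccr2* (2.07). With 1 library left out these calls were kept in 5 and 4 of 7 fits. Under cyclic loess they were at 1.07 and 1.22 and not called. The other gene tested, *Kit*, was at -0.91 and not called, and 9 of the 12 listed did not pass the filter. The part of any of these in the values of the microglia genes was not tested.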

How the data were processed

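Polyadenylated RNA of sorted cells was copied with poly-dT primers, amplified and sequenced. The authors aligned reads to GRCm38 with STAR 2.5.2b, after bcl2fastq 2.17.1.14 per the submitters' processing notes, and deposited raw counts per Ensembl gene and FPKM values. The counting program and its use of strand are not given in the sources used here. FPKM followed the length of the whole gene span and was not compared between genes.

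Counts of 7 libraries were tested with edgeR 4.0.16 (TMM, filterByExpr, quasi-likelihood test, Benjamini-Hochberg over 16522 genes, calls at adjusted p under 0.01). CPM uses TMM-scaled library sizes. Symbols came from GENCODE for 36345 of 38124 genes. DESeq2 1.42.0, limma 3.58.1, other filters, a replicate block and leaving out each library were alternatives. In every fit that leaves out a library, the genes tested were those of the fit to all 7. The script was tested on simulated data. No libraries held identical counts. The labels call the libraries biological replicates, and p-values measure the spread between these pools.

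The members, gene lists and tests were chosen with earlier results of these data known. Named genes were the members, *Sox9*, every called gene or otherwise the 3 most abundant of related lists, and the 3 genes nearest in pattern to each of the 3 members with most counts. Outside this rule are *Ms4a1*, *Ccr2*, *Kit*, *Elavl4*, the overlapping *Med12l* and *Hmgxb3*, and genes named as failing the filter.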

Additional observations from a re-analysis of the deposited data

Results flagged for a closer look

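In the libraries labelled Sox9, *P2ry12* in Sox9_1 stood far from the other 3, at 13.87 CPM against 1.79 to 3.02. *Ccr2*, a receptor of monocytes, likewise stood apart in Sox9_1, at 7.829 CPM. Both were found by Dixon's test, uncorrected, among 28 groups of libraries tested, where chance flags about 1 in 20. The gap to the nearest library was 0.898 of the group's range for *P2ry12* and 0.831 for *Ccr2*.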

How the results depend on the processing

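Of the members, *C1qa* was called higher, and this count of 1 became 0 under cyclic loess normalization (*C1qa* 0.89 on the log2 scale, adjusted p 0.332), 0 with at least 10 counts in every library, which left *C1qb*, *Csf1r* and *P2ry12* in the test, 2 with no filter (*C1qc* 1.90, adjusted p 0.00609) and 2 at adjusted p under 0.05. It ranged from 0 to 2 when 1 library was left out. The cause was not tested. Replicate numbers did not pair the libraries, since deviations of same-numbered libraries correlated at -0.036, 0.118 and -0.0048 by title and only Control_2 correlated best with its own number. With a replicate block by title numbers 0 members (*C1qa* 2.54, adjusted p 0.0361), 400 higher and 218 lower genes were called, and by description numbers 1034 and 353, with *C1qa* called and *Cx3cr1* reversed to 0.11. All genes called higher, 1862 in the test reported, were 358 with cyclic loess, 638 with at least 10 counts in every library, 3616 at adjusted p under 0.05 and 837 to 1515 without 1 library. Genes called lower, 567, were 1391 with DESeq2, 284 with cyclic loess, 1452 with no filter, 204 with at least 10 counts, 1787 at adjusted p under 0.05 and 202 to 453 without 1 library. Under cyclic loess *C1qb* (-0.061), *C1qc* (-0.15), *Mrc1* (-0.091) and *Tyrobp* (-0.75) reversed, and list medians were -0.45 (other microglia and macrophage genes), 0.55 (border macrophages, 1.67 with no filter), -0.50 (complement), 0.26 (TREM2 and DAP12 signalling) and -0.60 (ligands). Without 1 library, log2 fold changes ranged from -0.21 to 1.10 for *C1qb*, -0.76 to 0.39 for *Cx3cr1*, -0.88 to 0.071 for *Aif1*, -1.30 to 0.15 for *P2ry12* and -0.51 to 1.28 for *Tyrobp*. The floor set for a count of 0, at 3 counts, was 0.629 CPM in Sox9_4, the shallowest library.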
